A study of Rattus norvegicus with 30 samples.

Results

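The 10 genes described here encode hydrolases and oxidases of phase I metabolism that are not cytochromes P450. They are the carboxylesterases Ces1d, Ces1c and Ces1e, the arylacetamide deacetylase Aadac, the epoxide hydrolases Ephx1 and Ephx2, the flavin monooxygenases Fmo1 and Fmo5, the alcohol dehydrogenase Adh1 and the aldehyde oxidase Aox1. They were chosen by name, with earlier results of these data known. Shares of all genes set beside their counts are therefore a description and not a test. Each gene was read from probe sets that the array annotation assigns to it alone. A gene with more than 1 such probe set was represented by the one with the highest mean over all 30 arrays. All 10 were among the 10222 genes tested. Ces1c and Adh1 had 2 probe sets each and every other member had 1. The gene annotated as Adh1 is listed as Adh1c in the current rat gene table and is called Adh1 here.

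The study measured RNA in frozen hepatocytes of male Sprague Dawley rats that were bought, thawed, plated on collagen under a Matrigel overlay and dosed on day 3 of culture. Methapyrilene is an antihistamine that was withdrawn because it caused liver tumours in rats. The groups were 100 uM Methapyrilene HCl, 3 uM Methapyrilene HCl and the vehicle DMSO after 24 h, and the same 3 treatments after 48 h, with 5 arrays in each of the 6 groups. The labels give 1% DMSO, while the protocol applies that share to the concentrated dosing solutions, and what reached the cells is not settled by them. Each array was a separate well, the labels name no animals, and p-values therefore measure the spread between wells. Signals are the deposited MAS5 values on a linear scale, log2 fold changes come from limma with their SE, and a gene was called at a Benjamini-Hochberg adjusted p under 0.05 over all genes tested. Groups have n = 5 throughout, and the number of arrays limits the precision.

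Phase I reactions expose or add a polar group on a drug, which conjugating enzymes can then use. Carboxylesterases and Aadac are serine hydrolases that cleave esters and amides, and the epoxide hydrolases add water to reactive epoxides. Aadac and most carboxylesterases lie in the endoplasmic reticulum, while Ces1c is known as a secreted esterase. Flavin monooxygenases place an oxygen on nitrogen or sulfur, or, for Fmo5, beside a carbonyl group. Alcohol dehydrogenase and aldehyde oxidase are enzymes of the cytosol, and aldehyde oxidase carries a molybdenum cofactor. All are prominent in liver.

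Among these genes the carboxylesterases are neighbours. In the RefSeq rat gene table they follow each other on chromosome 19 in the order Ces1f, Ces1e, Ces1d, Ces1c and Ces1a with no other gene between them. The 3 measured here differed in how they responded, and whether their promoters bear on this was not tested. As a description, the 250 bases before the start used in the RefSeq promoter table are shown. The build is GRCr8, where all 3 genes lie on the plus strand. For Ces1c the gene's record begins 64 bases before that start, so the end of its window lies inside the record. The windows are chr19:30005923-30006172 for Ces1e, chr19:30046244-30046493 for Ces1d and chr19:30099197-30099446 for Ces1c. Capitals mark the 2 runs of at least 7 bases that all 3 windows hold.
Ces1e: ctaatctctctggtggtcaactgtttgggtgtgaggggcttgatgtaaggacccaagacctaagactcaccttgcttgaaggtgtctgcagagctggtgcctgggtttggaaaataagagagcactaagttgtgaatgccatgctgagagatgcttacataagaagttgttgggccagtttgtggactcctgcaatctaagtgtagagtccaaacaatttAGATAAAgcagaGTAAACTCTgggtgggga
Ces1d: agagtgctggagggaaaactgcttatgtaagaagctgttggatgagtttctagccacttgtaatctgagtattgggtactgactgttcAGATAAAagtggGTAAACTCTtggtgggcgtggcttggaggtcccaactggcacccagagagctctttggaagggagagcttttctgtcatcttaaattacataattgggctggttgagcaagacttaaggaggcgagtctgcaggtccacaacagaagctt
Ces1c: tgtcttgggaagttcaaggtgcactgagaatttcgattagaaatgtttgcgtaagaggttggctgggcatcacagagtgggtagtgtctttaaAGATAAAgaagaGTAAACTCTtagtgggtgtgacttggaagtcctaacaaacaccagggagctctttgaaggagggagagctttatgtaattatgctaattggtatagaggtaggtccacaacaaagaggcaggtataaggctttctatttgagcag

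The first run, AGATAAA, began 30 bases before the start used for Ces1e, 162 before that for Ces1d and 157 before that for Ces1c. The second, GTAAACTCT, does not overlap the first and began 18, 150 and 145 bases before the same starts. From the beginning of the Ces1c record the distances were 93 and 81 bases. Counting both strands, AGATAAA was present in 4.01% of the 33469 windows of this length in the table and GTAAACTCT in 0.197%, or 66 windows. Both runs were found by comparing the 3 windows, and a match is a description of the sequence, not a site. Of the 10 members, 9 had such a window, all except Ephx2.

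Array medians lay between 362 and 471 after the deposited scaling. Replicates 1, 2 and 3 of 3 uM at 24 h stood apart, with a ratio of the 3' to the 5' beta-actin control of 3.93, 5.10 and 5.30 against 2.34 to 3.43 on the other 27 arrays, and the comparisons of the members with 3 uM at 24 h are also given without them. The cells carried hepatocyte RNA: all 7 measured of 8 hepatocyte markers passed the filter, and their summed signal lay between 433261 and 547774 at 100 uM and between 440472 and 549991 in DMSO at 24 h. At 48 h the sums lay between 403577 and 449693 at 100 uM and between 432202 and 508888 in DMSO. In these cultures fewer cells of a type and less RNA per cell cannot be told apart.

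At 100 uM, 7 of the 10 genes fell and 0 rose at 24 h, where 15.8% of all genes tested were called lower and 19.9% higher. At 48 h the same 7 fell and 0 rose, against 14.5% of all genes called lower and 18.9% higher. They were Ces1d, Ces1e, Aadac, Ephx2, Fmo1, Fmo5 and Aox1. For each of these 7 genes, at both times, all arrays of 100 uM lay below all arrays of DMSO, as they did for 11.9% of genes at 24 h and 12.1% at 48 h. Ces1c, Ephx1 and Adh1 were not called at either time. These counts read each gene by its brightest probe set, and the dimmer Adh1 probe set, given below, was higher at 100 uM at 48 h. The median log2 fold change of the 10 members was -0.83 at 24 h and -0.74 at 48 h, beside 0.043 and 0.049 over all genes tested.

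**Figure D1:**
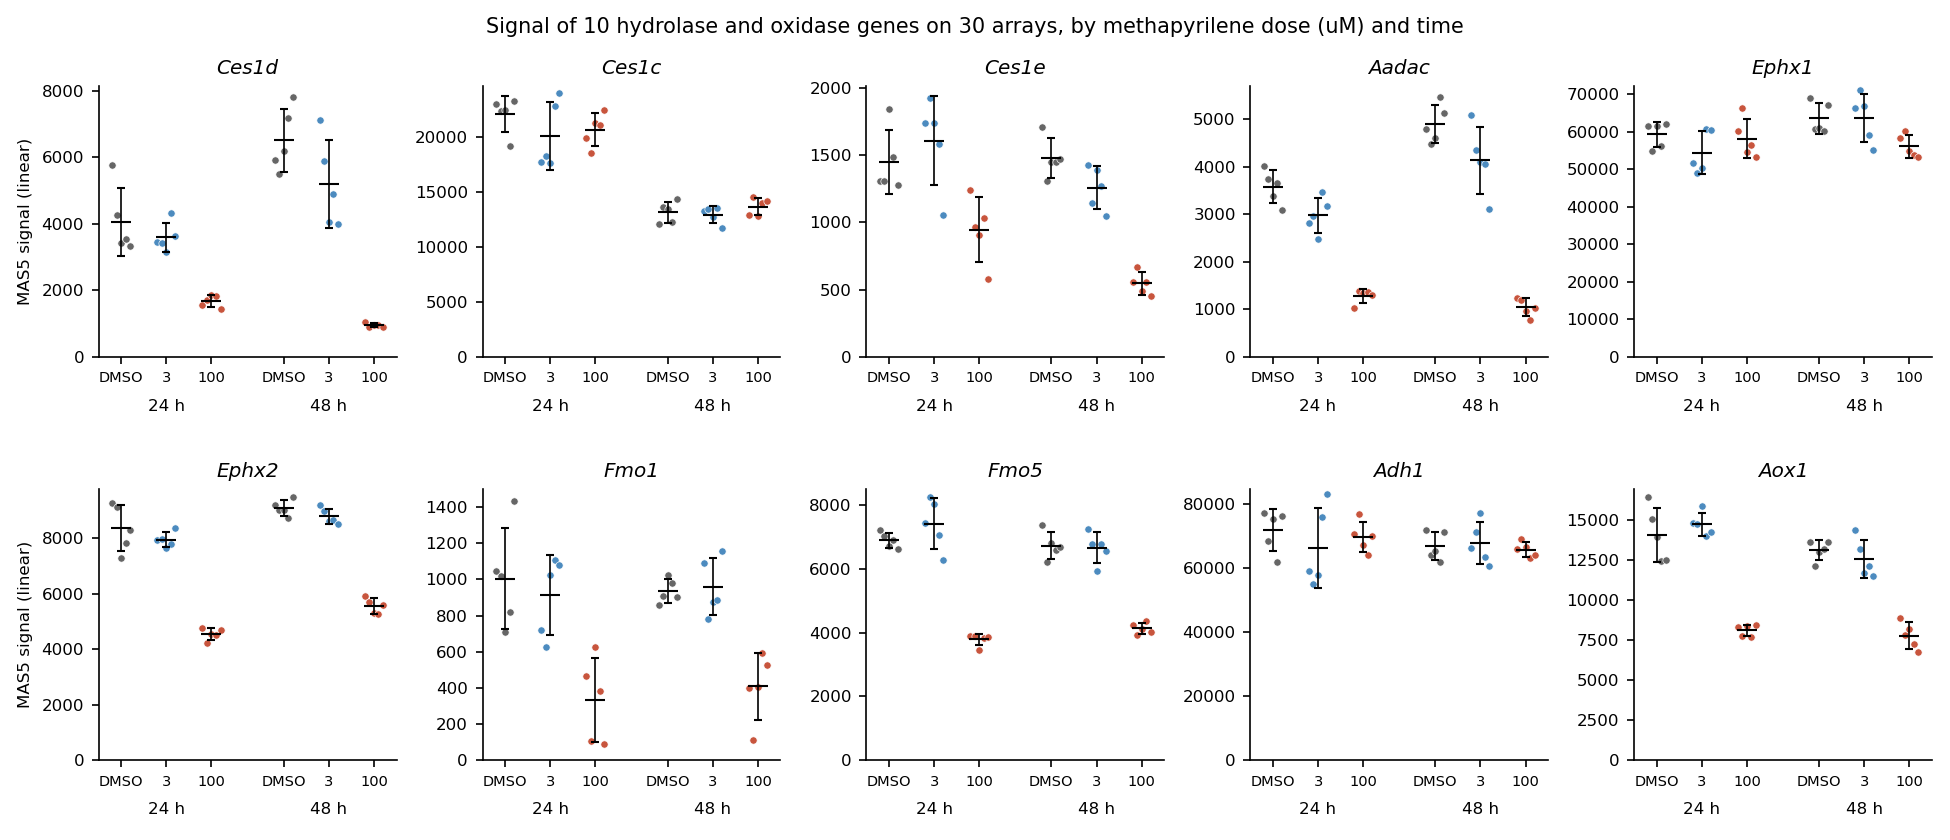
MAS5 signal (linear) of each of the 10 genes on 30 arrays, by methapyrilene dose in uM and time, with points for wells and bars for the mean ± SD of 5 wells. The 100 uM points lie below all DMSO points for Ces1d, Ces1e, Aadac, Ephx2, Fmo1, Fmo5 and Aox1 at both times, and overlap them for Ces1c, Ephx1 and Adh1.

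Ces1d, a carboxylesterase known in rodents for hydrolysing drug esters and stored lipid, had the largest fold change of the 10 at 48 h. At 24 h its signals were 1567, 1715, 1845, 1815 and 1453 in the 100 uM wells, against 5760.1, 4256, 3411, 3533 and 3337 in the DMSO wells. At 48 h they were 1045, 897, 963, 955 and 889.6 at 100 uM, against 5915, 5491, 6170.1, 7166 and 7793 in DMSO. The groups did not overlap at either time, and replicate 1 was the highest of the DMSO wells at 24 h. Ces1d fell to 42.1% of the DMSO level at 24 h, a log2 fold change of -1.25 ± 0.14 (limma, adjusted p = 5.21e-09). It fell to 14.7% at 48 h (-2.77 ± 0.14, adjusted p = 4.40e-17). By p it ranked 9 among the 10222 genes at 48 h, and 2 genes called lower had a larger fold change. The effect was larger at 48 h than at 24 h, by -1.52 ± 0.19 on the log2 scale (adjusted p = 7.65e-06).

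Ces1e, the neighbouring carboxylesterase, was dimmer and fell less. Its signals at 24 h were 1240.4, 965, 910.1, 1036 and 581 at 100 uM, against 1311, 1306, 1848, 1489 and 1281 in DMSO. After 48 h they were 559, 672, 489.5, 554 and 456 at 100 uM, against 1713, 1305, 1449, 1450.2 and 1474 in DMSO. At 24 h the highest 100 uM well came close to the lowest DMSO well, and at 48 h the groups were far apart. The fall was -0.64 ± 0.16 at 24 h (adjusted p = 0.0016) and -1.44 ± 0.16 at 48 h (adjusted p = 5.75e-09). The difference between those effects was -0.80 ± 0.22 and missed the threshold (adjusted p = 0.0577). It passed under 8 of the 33 alternatives, with adjusted p from 0.00560 to 0.155 over all of them. Among these was the fit with runs of 6 consecutive array numbers, each holding 1 array of every group, as a block (-0.80 ± 0.19, adjusted p = 0.0181).

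Ces1c, a carboxylesterase known as a secreted esterase of rodent plasma, was by far the brightest of the 3 and was not called at 100 uM. Its signals at 24 h were 19884, 18511, 21243, 21107 and 22453 at 100 uM, against 23019.9, 22348, 22428, 19179.6 and 23225 in DMSO. At the later time they were 12917, 14516, 12769, 13968 and 14161 at 100 uM, against 12041, 13638, 13449.5, 12288 and 14343 in DMSO. The groups overlapped at both times, while every well at 48 h lay below every well at 24 h. The log2 fold change was -0.094 (95% interval -0.25 to 0.061, adjusted p = 0.370) at 24 h and 0.057 (-0.099 to 0.21, adjusted p = 0.623) at 48 h. Its second probe set lay below the array median on all 30 arrays and gave no usable check. The 3 genes are similar in sequence, and whether a probe set also binds RNA of a neighbour was not tested.

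Aadac, which removes acetyl groups from arylacetamide drugs and also acts on lipids, followed Ces1d. At 24 h its signals were 1036, 1379, 1351, 1372 and 1294 at 100 uM, against 4014, 3734, 3393, 3665 and 3096 in DMSO. At 48 h they were 1247, 1193, 969, 783 and 1026 at 100 uM, against 4799, 4481, 4605, 5465 and 5134 in DMSO. The groups were apart at both times, and the DMSO wells were higher at 48 h than at 24 h while the 100 uM wells overlapped between the times. Aadac fell to 35.9% of DMSO at 24 h (-1.48 ± 0.12, adjusted p = 3.56e-12) and to 21.1% at 48 h (-2.25 ± 0.12, adjusted p = 8.43e-17). Its effect was larger at 48 h, by -0.77 ± 0.16 (adjusted p = 0.00887).

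The epoxide hydrolases differed from each other. Ephx2, the soluble epoxide hydrolase, which acts on epoxides of fatty acids, had signals of 4770, 4211, 4538, 4516 and 4675 at 100 uM and 24 h, against 9271, 9108, 7298, 7839 and 8293 in DMSO. At 48 h it had 5932, 5707, 5292, 5253 and 5579.6 at 100 uM, against 9204, 9023, 9000.4, 8731 and 9495 in DMSO. The wells of each 48 h group lay close together and far from the other group. Ephx2 fell by 0.88 on the log2 scale at 24 h (SE 0.056, adjusted p = 2.71e-14) and by 0.71 at 48 h (SE 0.056, adjusted p = 3.04e-12).

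Ephx1, the microsomal epoxide hydrolase that detoxifies epoxides made by cytochromes P450, was not called at 100 uM. Its signals ran from 53213 to 66194 with a median of 56411 at 100 uM and 24 h, and from 54913 to 62032 with a median of 61395 in DMSO. At 48 h they ran from 53321 to 60254 with a median of 54718 at 100 uM, and from 60079 to 68794 with a median of 61029.9 in DMSO. The groups overlapped at 24 h, and at 48 h a single 100 uM well reached into the DMSO range. The log2 fold change was -0.031 (95% interval -0.18 to 0.12, adjusted p = 0.792) at 24 h. At 48 h it was -0.18 (-0.33 to -0.033), which missed the threshold (adjusted p = 0.0529) and passed it under 5 of 23 alternatives, with adjusted p from 0.00407 to 0.143.

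The flavin monooxygenases fell at both times. Fmo5, which oxidises ketones as well as drugs, had 3877, 3903, 3453, 3813 and 3859 at 100 uM and 24 h, against 7198, 7024, 6714.0, 6884 and 6611 in DMSO. At 48 h it had 4225, 3917, 4123, 4360.04 and 4017 at 100 uM, against 7354, 6198, 6799.9, 6579 and 6666 in DMSO. The groups were far apart, and replicate 3 at 100 uM and 24 h was the lowest of all wells. Fmo5 fell by 0.87 on the log2 scale at 24 h (SE 0.064, adjusted p = 8.76e-13) and by 0.70 at 48 h (SE 0.064, adjusted p = 1.03e-10).

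Fmo1, which oxygenates amine and sulfur drugs and is a main flavin monooxygenase of rat liver, was the dimmest member and the most scattered. Its signals were 467, 108, 629, 381 and 90.6 at 100 uM and 24 h, against 1048, 1019, 707, 818 and 1431 in DMSO. At 48 h they were 401, 110.5, 405, 595 and 529 at 100 uM, against 859.7, 911, 1026, 982 and 904 in DMSO. All 100 uM wells lay below the DMSO wells, but only 2 of 5 at 24 h and 3 of 5 at 48 h were above their array's median, so the size of the fold is uncertain. The log2 fold change was -1.93 ± 0.39 at 24 h (adjusted p = 0.000168) and -1.40 ± 0.39 at 48 h (adjusted p = 0.00516). With each array left out in turn it ranged from -2.25 to -1.56 and from -1.58 to -0.97.

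Aox1, aldehyde oxidase, which oxidises aldehydes and nitrogen heterocycles, fell by a similar amount at both times. Its signals were 8325, 7727, 8359.9, 7697 and 8417 at 100 uM and 24 h, against 16421, 15031, 13905, 12458 and 12484 in DMSO. At 48 h they were 8892, 7791, 8158, 7270.02 and 6731 at 100 uM, against 13614, 12100.3, 12974, 13182 and 13648 in DMSO. No 100 uM well reached the DMSO range. The log2 fold change was -0.79 ± 0.073 at 24 h (adjusted p = 1.61e-10) and -0.76 ± 0.073 at 48 h (adjusted p = 3.36e-10).

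Adh1, the main alcohol dehydrogenase of liver, was the brightest member, and its probe sets gave different readings. The brighter probe set ran from 64075 to 76664 with a median of 69809 at 100 uM and 24 h, and from 61939 to 77124 with a median of 75373 in DMSO. At 48 h it ran from 62968 to 69022 with a median of 65919.8 at 100 uM, and from 61754 to 71737 with a median of 65354 in DMSO. The groups overlapped throughout. Its log2 fold change was -0.042 (95% interval -0.22 to 0.13, adjusted p = 0.758) at 24 h and -0.024 (-0.20 to 0.15, adjusted p = 0.866) at 48 h.

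The dimmer Adh1 probe set also lay above the array median on all 30 arrays. It read 2955, 3009, 2769.9, 3091 and 3684 at 100 uM and 48 h, against 2576, 2641, 2301, 1942 and 2144 in DMSO, so that every 100 uM well was above every DMSO well. In a limma fit over all 20826 probe sets with 1 gene symbol, it rose by 0.42 ± 0.10 at 48 h (adjusted p = 0.00304). At 24 h it was at -0.22 ± 0.10 (adjusted p = 0.156), and the difference between the times was 0.64 ± 0.15 (adjusted p = 0.0293). The brighter probe set differed by 0.019 ± 0.13 between the times in that fit (adjusted p = 0.989). Which transcripts each probe set reads was not tested, and no direction for Adh1 is drawn from either.

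**Figure D2:**
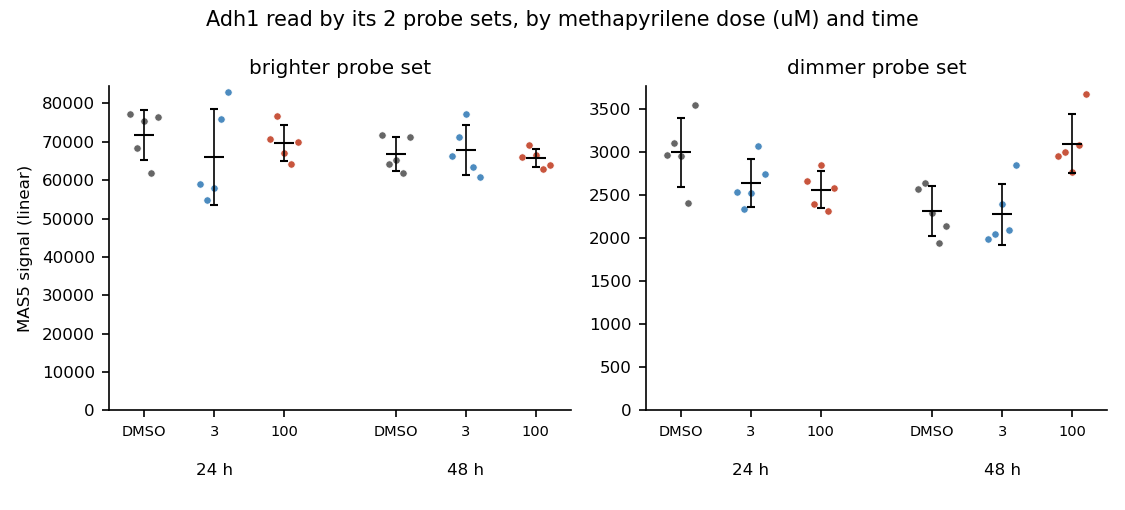
MAS5 signal (linear) of the 2 Adh1 probe sets on 30 arrays, by methapyrilene dose in uM and time, with points for wells and bars for the mean ± SD of 5 wells. At 48 h the 100 uM wells of the dimmer probe set lie between 2769.9 and 3684, above all DMSO wells, while those of the brighter one overlap DMSO.

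The 3 genes that were not called at 100 uM were also the brightest of the 10. Among the 10222 genes Adh1 ranked 24, Ephx1 54 and Ces1c 620 by mean signal, and the 7 that fell ranked from 1037 for Aox1 to 7573 for Fmo1. Of the 54 genes at least as bright as Ephx1, 3 were called lower at 24 h and 8 at 48 h, and 0 were called higher at either time. Of the 620 at least as bright as Ces1c, 124 were called lower and 136 higher at 24 h, and 162 lower and 104 higher at 48 h. Whether the brightest probe sets respond less than the RNA does was not tested. In DMSO, 48 h against 24 h, 27 of these 620 genes were called lower, Ces1c among them, and 16 higher. Of the 54 at least as bright as Ephx1, 0 were called in either direction in that comparison.

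At 3 uM, limma called 0 of the 10 genes at either time, with 4.22% of all genes called at 24 h and 0.0391% at 48 h. At an unadjusted p under 0.05, 1 member passed at 24 h and 2 at 48 h, beside 2252 and 521 of all genes. Aadac was the 1 at 24 h, with signals of 2821, 2967, 2489, 3465 and 3175 at 3 uM against the DMSO values above, and a log2 fold change of -0.27 (95% interval -0.50 to -0.030, adjusted p = 0.169). Without the 3 arrays that stood apart it was -0.10 ± 0.15 (adjusted p = 0.896). At 48 h the 2 were Ces1d (-0.35, -0.63 to -0.076, adjusted p = 0.909) and Aadac (-0.26, -0.49 to -0.021, adjusted p = 0.960). The Ces1d signals at 3 uM and 48 h were 7123, 5875, 4058, 4884 and 3979.6, so that the wells spread over and below the DMSO range. The other members lay between -0.14 and 0.14 at 24 h apart from Ces1d (-0.15), and between -0.24 and 0.022 at 48 h, and the widest interval, for Fmo1, ran from -0.93 to 0.66 at 24 h.

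**Figure D3:**
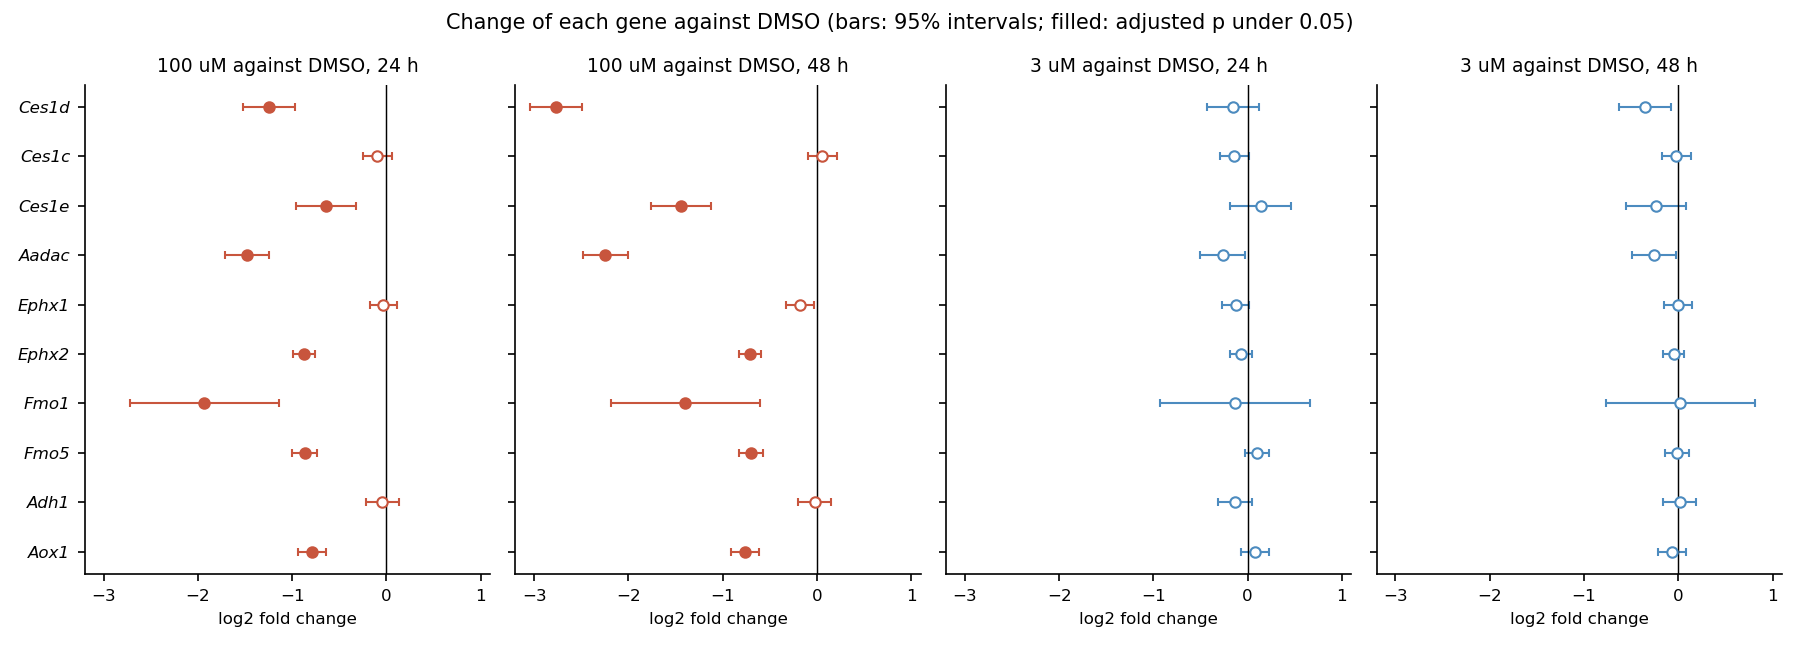
Log2 fold change against DMSO of each of the 10 genes at 100 uM and 3 uM after 24 and 48 h, from limma, with bars for 95% intervals and filled points where the adjusted p was under 0.05. At 100 uM, 7 genes are filled and below 0 at both times, and at 3 uM none is filled.

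The 3 uM values at 24 h rest on the 3 arrays that stood apart. In replicates 1, 2 and 3 the brighter Adh1 probe set read 58990, 54895 and 57827, against 75864 and 83041 in replicates 4 and 5. Ephx1 (51521, 48855 and 50372 against 60781 and 60333) and Ces1c split the same way, and Fmo5 the other way, with 7443, 8245 and 8041 against 7043 and 6281. Without these 3 arrays limma again called 0 members, and 4 of the 10222 genes tested. The log2 fold change of Adh1 was 0.15 ± 0.084 where it was -0.13 ± 0.087 with them. Those of Ephx1 were 0.034 ± 0.084 without them and -0.13 ± 0.072 with them. The sign also turned for Ces1c (0.089 ± 0.079 without them, -0.14 ± 0.076 with them), Ces1e (-0.15 ± 0.20 and 0.14 ± 0.16), Fmo1 (0.16 ± 0.53 and -0.14 ± 0.39) and Fmo5 (-0.049 ± 0.072 and 0.10 ± 0.064). Ces1d was at -0.0068 ± 0.18 without them, Ephx2 at -0.045 ± 0.073 and Aox1 at 0.013 ± 0.096. No direction at 3 uM and 24 h is drawn for these members.

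Against 3 uM, 100 uM was lower for the same 7 genes at 24 h, where 19.1% of all genes were called lower, and at 48 h, where 12.6% were. The changes ran from -1.80 ± 0.39 for Fmo1 to -0.78 ± 0.16 for Ces1e at 24 h, and from -2.41 ± 0.14 for Ces1d to -0.66 ± 0.056 for Ephx2 at 48 h. Without the 3 arrays at 3 uM and 24 h, Ces1e was at -0.49 ± 0.20 and lost the call (adjusted p = 0.0738). That left 6 members called lower, between -2.09 ± 0.53 for Fmo1 and -0.80 ± 0.096 for Aox1. In that same fit 1261 of the 10222 genes tested were called lower. These comparisons use the same 100 uM wells as those with DMSO.

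In DMSO alone, 48 h against 24 h, 2 members rose and 1 fell, where 2.56% of all genes were called higher and 1.92% lower. Ces1c fell to 13152 ± 965 at 48 h, against 22040.1 ± 1643 at 24 h (SD), a log2 fold change of -0.74 ± 0.076 (adjusted p = 1.80e-08). The wells at 100 uM and 3 uM were also lower at 48 h than at 24 h without overlap, with means at 48 h of 12938 at 3 uM and 13666 at 100 uM. Ces1d rose, to 6507 ± 947 at 48 h against 4059.6 ± 1018 at 24 h (0.70 ± 0.14, adjusted p = 0.000961), although replicate 1 at 24 h, with 5760.1, lay among the 48 h wells. Aadac rose by 0.45 ± 0.12 (adjusted p = 0.0162), with no overlap between the times. All 48 h wells lay above all 24 h wells for 3.38% of genes and below them for 3.07%. The call for Aadac was lost with arrays centred on their medians (adjusted p = 0.0766), and without replicate 5 at 24 h (0.0643) or replicate 4 at 48 h (0.0568). The other 7 were not called, with Ephx2 at 0.13 ± 0.056 (adjusted p = 0.251).

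Ces1d and Aadac moved apart between treatments. For both, the 100 uM effect grew between the times while the DMSO wells rose, so the change of effect holds both movements. At 100 uM itself the Ces1d mean was 949.9 ± 62.5 at 48 h and 1679 ± 167 at 24 h, and no well of the later time reached the earlier range. The Aadac means at 100 uM were 1043.5 ± 186 at 48 h and 1286 ± 144 at 24 h, with overlapping wells. Only these 2 members were called for a change of the 100 uM effect, where 1.05% of all genes were called lower and 0.616% higher. For the change of the 3 uM effect limma called 0 members and 0% of all genes, and at an unadjusted p under 0.05 it called 0 members and 1256 genes.

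**Figure D4:**
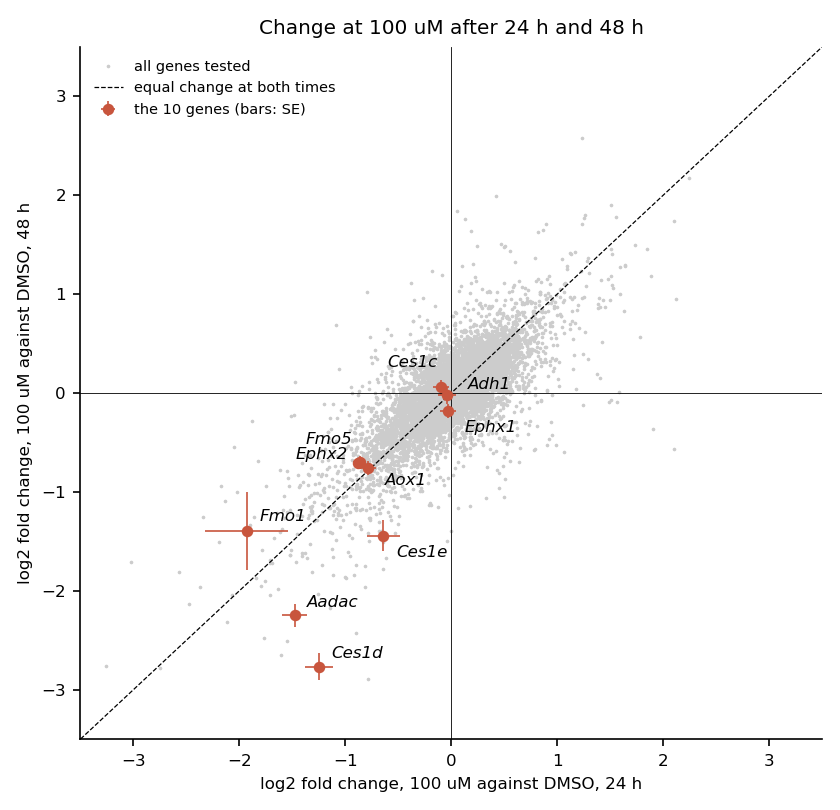
Log2 fold change at 100 uM against DMSO after 24 h (horizontal) and 48 h (vertical) for all 10222 genes tested (grey) and the 10 members (red, bars are SE), with a dashed line for equal change at both times. Ces1d (-1.25 at 24 h, -2.77 at 48 h) and Aadac (-1.48 and -2.25) lie below the line, and Ces1c, Ephx1 and Adh1 lie near the origin.

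Over the 6 groups, Ces1d was highest in DMSO at 48 h and lowest at 100 uM and 48 h, and among neighbours in the order of means only 3 uM at 24 h, 100 uM at 24 h and 100 uM at 48 h had ranges that did not overlap. Ephx2 and Fmo5 were lowest at 100 uM and 24 h, with 100 uM at 48 h next and above it without overlap, and the 4 groups of DMSO and 3 uM overlapped from each to the next. For Aox1 and Aadac the 100 uM groups of the times overlapped each other and lay below all others. Those of Fmo1 overlapped each other as well, and the highest well at 100 uM and 24 h, with 629, just reached the lowest at 3 uM and 24 h, with 628. For Ces1e all neighbours overlapped. For Adh1 and Ephx1 all neighbours overlapped as well, and for Ces1c the single gap lay between 24 h and 48 h.

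The genes most alike in pattern, by Pearson correlation of log2 signal over the 30 arrays, are given as a description. These values hold differences between the 6 groups as well as between wells. Aadac itself was the gene most like Ces1d (r = 0.973), and Car5a, a mitochondrial carbonic anhydrase, came next for Ces1d (0.964) and for Aadac (0.979). First for Aadac was Agmo, an oxidase of ether lipids (0.982). Ces1c was most like Pon1, a paraoxonase secreted into plasma (0.966), and Cyp3a2 (0.930). Ces1e was most like Cyp4f1 (0.937) and Cyp2a2 (0.925).

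Ephx2 was most like Afmid, the formamidase of tryptophan breakdown (0.975), and Bhmt, which remethylates homocysteine (0.973). Fmo5 was most like Clcn4 (0.978) and Sec16b (0.971), and Aox1 most like the glucose 6-phosphate transporter Slc37a4 (0.968) and Sec22b (0.966). Fmo1 had weaker neighbours in Uroc1 (0.871), of histidine breakdown, and Calml4 (0.830). Ephx1 was most like Atp5f1c of the ATP synthase (0.894) and Etfa (0.891), and Adh1 most like the plasma protein genes Ambp (0.934) and Apoa1 (0.930).

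Among related enzymes at 100 uM, more fell than rose in the larger lists. These lists and those of the next paragraphs were also chosen with earlier results of these data known. Over all genes tested, 15.8% were called lower and 19.9% higher at 24 h. At 48 h 14.5% were called lower and 18.9% higher. Of 9 other esterases tested, 4 fell and 1 rose at each time. All of the following log2 fold changes are at 24 h and then at 48 h. Afmid fell (-1.46 ± 0.097 and -1.43 ± 0.097), as did Pon3, a lactonase (-0.49 ± 0.074 and -1.25 ± 0.074), and Bphl, a hydrolase of amino acid ester prodrugs (-0.68 ± 0.093 and -1.12 ± 0.093). Pon1 was not called (0.0048 ± 0.074 at 24 h, 0.17 ± 0.074 at 48 h), and Nceh1, a cholesteryl ester hydrolase named after its values were seen, was the gene that rose (0.31 ± 0.11 and 0.32 ± 0.11). Lta4h, the leukotriene hydrolase, was at -0.10 ± 0.059 (adjusted p = 0.197) at 24 h and fell at 48 h (-0.21 ± 0.059, adjusted p = 0.00613). Fmo4 fell at 24 h (-0.58 ± 0.14, adjusted p = 0.00173) and was at -0.16 ± 0.14 at 48 h (adjusted p = 0.444).

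Of 9 other dehydrogenases and oxidases of alcohols, amines and purines, 8 fell at 24 h and 7 at 48 h, and 0 rose. Xdh, the xanthine oxidase that shares the molybdenum cofactor with Aox1, fell at both times (-1.54 ± 0.11 and -0.86 ± 0.11). Dao, which oxidises D-amino acids, fell as well (-1.20 ± 0.092 and -1.40 ± 0.092). Of 6 genes of the molybdenum cofactor and its other users, 4 fell at 24 h and 3 at 48 h, and 0 rose. Mtarc1 of the amidoxime reductase was at -0.83 ± 0.10 and -0.73 ± 0.10. Mocs1, at the first step of cofactor synthesis, was at -0.27 ± 0.13 at 24 h (adjusted p = 0.0974) and fell at 48 h (-0.43 ± 0.13, adjusted p = 0.00757).

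Of 25 carbonyl and quinone reductases, 13 fell and 2 rose at 24 h, and 15 fell and 1 rose at 48 h. Akr1c1, of the aldo-keto reductases, had 1165 ± 176 at 100 uM against 3998 ± 776 in DMSO at 24 h, and 822 ± 97.4 against 4578 ± 485 at 48 h. Dcxr, which reduces dicarbonyls and xylulose, fell (-1.13 ± 0.12 and -1.42 ± 0.12), while Cbr1, a carbonyl reductase named after its values were seen, rose by 0.27 ± 0.059 and 0.22 ± 0.059. Of 5 electron donors of the endoplasmic reticulum, Por, the P450 reductase, fell (-0.52 ± 0.079 and -0.24 ± 0.079), and so did Cyb5a, cytochrome b5 (-0.27 ± 0.082 and -0.43 ± 0.082). In all 3 of the 5 fell at 24 h, and at 48 h 2 fell and 1, Cyb5b, rose (0.24 ± 0.074).

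Among regulators known to act on drug metabolism genes, more fell than rose. Of 13 tested, 7 fell and 1 rose at 24 h, where 15.8% of all genes were called lower and 19.9% higher. At 48 h 7 fell and 2 rose, against 14.5% of all genes called lower and 18.9% higher. Nr1i3, the receptor CAR, had 418 ± 107 at 100 uM against 2167 ± 555 in DMSO at 24 h, and 517 ± 108 against 1988 ± 227 at 48 h. Nr1i2, the receptor PXR, fell (-0.69 ± 0.080 and -0.37 ± 0.080), as did Nr1h3, the oxysterol receptor LXR-alpha (-0.73 ± 0.065 and -0.47 ± 0.065). Nfe2l2, the factor NRF2, named after its values were seen, rose at both times (0.26 ± 0.062 and 0.29 ± 0.062).

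Markers of other liver cells were mostly dim. The shares of all genes called at 100 uM, given above, stand beside the counts here as well. Of 4 Kupffer cell and leukocyte markers tested 1 rose at 24 h and 2 at 48 h, and 0 fell. Of 5 stellate cell markers 1 rose at 48 h, the 1 endothelial marker was not called, and of 2 cholangiocyte markers 1 rose at 24 h and 2 fell at 48 h. Of 7 hepatocyte markers 1 fell at each time, Fgb at 24 h (-0.35, adjusted p = 0.00151) and Apoh at 48 h (-0.24, adjusted p = 0.0351). The summed signal of the 7 measured Kupffer cell and leukocyte markers lay between 3112 and 3907 at 100 uM and between 2201 and 3108 in DMSO at 24 h, and between 3087 and 4079 at 100 uM and between 1704 and 2555 in DMSO at 48 h. Cd68, a lysosomal protein of macrophages, rose by 0.86 ± 0.12 and 1.65 ± 0.12 on the log2 scale, while Cd163, Adgre1 and Ptprc were never above the array median. Stellate cell, endothelial and cholangiocyte sums at 24 h lay between 3433 and 4052, 971 and 1666, and 11089.8 and 11967 at 100 uM, and between 3011 and 3808, 829 and 1448, and 9925 and 11037 in DMSO. At 48 h those sums lay between 3430.1 and 4069, 1085 and 1342, and 11063 and 12023 at 100 uM, and between 3274 and 3760.1, 978 and 1186, and 12599.6 and 13594 in DMSO. The cholangiocyte sum, nearly all of it Epcam, did not overlap between 100 uM and DMSO at either time and was higher at 100 uM at 24 h and lower at 48 h. Lum, Pdgfrb, Pecam1, Tek, Krt7, Spp1 and Cftr were never above the array median. The part of any of these cells in the members' values was not tested.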

How the data were processed

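The deposited intensity values are MAS5 signals, as the submitters' processing notes name them, for 31099 probe sets on 30 Affymetrix rat arrays, with 1 well per array. The software version and detection calls are not given in the sources used here. The deposited signals are on a linear scale, and each array's mean without the lowest and highest 2% was 1500.54 to 1500.66. Signals were used as deposited on the log2 scale with no pseudocount. Probe sets needed 1 gene symbol (20826; 436 had several, 9780 none, and 57 were controls) and a signal above the array's own median on at least 5 arrays. The brightest probe set stood for a gene, which left 10222 genes. limma 3.58.1 in R 4.3.3 fitted group means over all 30 arrays with eBayes and an intensity trend, 24 residual degrees of freedom and two-sided tests, with Benjamini-Hochberg adjustment per comparison.

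The members and all gene lists were chosen with earlier results of these data known. Of each other list, up to 4 called genes with the smallest adjusted p at 100 uM were eligible to be named, and others named are said to be chosen after their values were seen or stand beside the called ones. Comparisons with DMSO at the same time share their DMSO wells. The procedure was tested on simulated data. Promoter windows and gene order came from RefSeq tables for GRCr8. The alternatives changed the normalization, filter, pseudocount, probe set rule, limma options, groups fitted, covariates and arrays left out.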

Additional observations from a re-analysis of the deposited data

Results flagged for a closer look

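Of the 60 groups of 5 wells that the 10 members form, 3 held a well far from the others. The rule was Dixon's, the gap to the nearest well over the range of the group, with a critical value of 0.71. Chance gives about 1 in 20 such groups, so the count of 3 in 60 is not above it. For Ces1c in DMSO at 24 h it was replicate 4 with 19179.6, below the others at 22348 to 23225. For Aadac at 100 uM and 24 h it was replicate 1 with 1035.65, below the others at 1294 to 1379. For Fmo5 at 100 uM and 24 h it was replicate 3 with 3453.14, below the others at 3813 to 3903.

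The 100 uM effect on 2 members differed between the times. That on Ces1d was larger at 48 h by -1.52 ± 0.19 on the log2 scale (limma, adjusted p = 7.65e-06), and that on Aadac by -0.77 ± 0.16 (adjusted p = 0.00887).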

How the results depend on the processing

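Of 2300 pairs of a member's result and an alternative, 2263 kept their side of the threshold, 83 of them with the other sign but called in neither case. Of the rest, 6 lost a call, 29 gained one with the same sign and 2 gained one with the other sign. The 7 members that fell at 100 uM kept their calls at both times in all 23 alternatives. The 2 with the other sign were Adh1 at 100 uM and 48 h with its probe sets averaged. That gave 0.20 (adjusted p = 0.0494) against DMSO and 0.21 (adjusted p = 0.0476) against 3 uM. The reported values, -0.024 and -0.040, were not called. Ces1e at 100 uM against 3 uM and 24 h lost its call with the beta-actin ratio as a covariate (adjusted p = 0.118).

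The count of genes called at 3 uM and 24 h, 431 as reported, was 248 with arrays centred on their medians, 2891 with array weights, 0 with only the compared groups fitted, 1 with the beta-actin covariate, 4 without the 3 arrays that stood apart and 54 at an adjusted p under 0.01. Leaving out each array gave 42 to 1650, and 0 to 1 members. With array weights 5 members were called there: Ces1c (-0.25), Aadac (-0.32), Ephx1 (-0.20) and Adh1 (-0.27) lower and Fmo5 (0.18) higher. For 3 uM at 48 h the count was 4 as reported, 2 with median centring or at 0.01, and 2 to 4 with arrays left out. For DMSO over time it was 458 as reported, 243 with median centring, 691 with array weights and 242 at 0.01. For the change of the 100 uM effect it was 170 as reported, 58 with median centring, 262 with array weights and 64 at 0.01. For the change of the 3 uM effect it was 0 as reported, 1616 with array weights, with 1 member, and 0 to 153 with arrays left out. For 100 uM against 3 uM at 24 h it was 3973 as reported and 2437 with the beta-actin covariate. The causes of these moves were not tested.

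Median centring moved the share of calls that were higher at 100 uM to 47.5%, against 55.6% as reported, at 24 h, and to 44.7%, against 56.6%, at 48 h. The labels give the wells no shared replicate numbers and so no pairing, but the array numbers form runs of 6 with 1 array of each group. With these runs as a block, 1 of 90 calls on members changed, that of Ces1e for the change of the 100 uM effect, which then passed (adjusted p = 0.0181). Dim signals limit Fmo1, and the wells of unnamed animals limit every p-value.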

Other observations

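Some related genes moved with time. In DMSO, 48 h against 24 h, the plasma paraoxonase gene Pon1 had 11899 ± 632 at 48 h and 21029 ± 1111 at 24 h (SD, n = 5 each), a log2 fold change of -0.82 ± 0.074 (limma, adjusted p = 1.09e-09). Bphl rose over the same time by 0.41 ± 0.093 (adjusted p = 0.00476), and Epcam by 0.32 ± 0.057 (adjusted p = 0.000387).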
